A study of Mus musculus with 9 samples.

Results

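Eosinophil granule genes were followed in RNA of sorted bone marrow stromal cells through 2 phases of leukemia in mice. The set lists 6 genes, Prg2, Prg3, Epx, Ear2, Ear3 and Il5ra. The array's annotation gave a probe set with a single gene symbol to 5 of them, 1 probe set each, out of 18194 genes with such a probe set. Ear2 had none and is not analysed here. The set was selected on the signals of Prg2 and Ear3 in the early phase and in wild type, so differences between those groups are given as a description, with no p-value.

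Eosinophils are granulocytes that mature in the bone marrow under the cytokine interleukin 5. As they mature they fill large granules with a few cationic proteins: major basic protein, eosinophil peroxidase and ribonucleases of the RNase A family. The transcripts of these granule proteins are made mostly by eosinophil precursors in the marrow, and mature eosinophils store the proteins. Transcription factors of the GATA and C/EBP families and PU.1 are known to drive the granule genes.

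Total RNA came from FVB/NJ bone marrow cells sorted as negative for CD45.1, a form of the leukocyte surface protein CD45, and for Ter119, an erythroid surface marker, and was hybridised to Affymetrix mouse expression arrays. The groups were 3 arrays of wild-type mice (WT), 3 arrays of leukemic recipients in the early phase (E), with 1 to 5% leukemic cells in the marrow, and 3 arrays of leukemic recipients in the medium phase (M), with 5 to 50%. The labels call the arrays of a group biological replicates, and give neither the age of the mice, nor the leukemia model, nor whether animals were pooled. The series set out to follow how stromal gene expression shifts as leukemia advances. Its latent and late phases are not analysed here.

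Values are log2 signals of the MAS5 algorithm, which scales each array to the same trimmed mean, and 3 arrays per group limit how finely a difference can be placed. A difference is the mean of the group named first minus that of the other, on the log2 scale. A gene was called at an adjusted p under 0.05 (limma, Benjamini-Hochberg), over the 9097 genes at or above the median brightness (log2 6.83) or, for dimmer genes, over all 18194. Counts over a gene list are from the fit of all 18194 unless stated otherwise. The M arrays stood apart from the rest. Of the 9097 genes, 6259 were called between M and WT and 192 between E and WT, a count that ran from 98 to 836 when 1 array was left out. The median over all probe sets averaged 5.64 ± 0.04 on the WT arrays, 5.50 ± 0.09 on the E arrays and 6.26 ± 0.02 on the M arrays (SD, n = 3), and control RNAs added before labelling read 8.94 to 9.27 in WT, 9.03 to 9.20 in E and 9.88 to 10.44 in M. Other scalings therefore move M values down: over the 9097 genes, the median difference of M against WT was -0.19 as deposited, -0.82 after centring arrays on their median and -1.20 after scaling on the control RNAs. The label stromal was checked against 7 stromal genes, of which 1 rose in E and 7 rose in M, each against WT. Cxcl12, a chemokine of niche cells, read 8.63 ± 0.11 in WT, 8.85 ± 0.07 in E and 12.79 ± 0.03 in M, and Lepr, the leptin receptor of marrow stroma, 6.95 ± 0.39, 6.86 ± 0.38 and 12.14 ± 0.18 (SD, n = 3 each). Both thus read far lower in WT and E than in M, so a rise in M is no check of the label for WT and E.

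The RefSeq promoter table (mouse GRCm38.p6, the C57BL/6J reference, whereas the mice were FVB/NJ) held 4 of the 6 genes, not Prg2 or Ear3. The 250 bases before the start of 3 measured genes are shown, because lineage factors are known to act through such stretches: Prg3 at chr2:84987965-84988214 (plus strand), Epx at chr11:87875537-87875786 (minus strand) and Il5ra at chr6:106749038-106749287 (minus strand). Capitals mark the letters GATAA (GATA factors), TTNNGNAA (C/EBP factors) or GAGGAA (PU.1) on either strand.
Prg3: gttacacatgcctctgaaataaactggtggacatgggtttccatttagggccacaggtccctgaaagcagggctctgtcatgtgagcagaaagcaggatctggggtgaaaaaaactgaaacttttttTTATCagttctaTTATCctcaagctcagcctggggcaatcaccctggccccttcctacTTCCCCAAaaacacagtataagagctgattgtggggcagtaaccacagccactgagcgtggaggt
Epx: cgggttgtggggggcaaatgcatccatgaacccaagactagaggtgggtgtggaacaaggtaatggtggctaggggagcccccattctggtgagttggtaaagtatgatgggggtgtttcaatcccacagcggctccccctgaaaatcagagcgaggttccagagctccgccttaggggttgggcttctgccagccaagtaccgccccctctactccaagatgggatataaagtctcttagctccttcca
Il5ra: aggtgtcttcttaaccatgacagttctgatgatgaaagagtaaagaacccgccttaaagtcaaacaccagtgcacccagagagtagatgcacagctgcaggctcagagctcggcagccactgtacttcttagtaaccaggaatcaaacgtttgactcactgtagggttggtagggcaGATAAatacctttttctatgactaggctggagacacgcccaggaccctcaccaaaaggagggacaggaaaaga
The Prg3 promoter held GATAA at 2 positions, 123 and 111 bases before the start, both read on the opposite strand (TTATC), and 1 match to TTNNGNAA 65 bases before it. The Il5ra promoter held GATAA once, 73 bases before the start. The Epx promoter held none of the 3 letter runs, and that of Ear2, not shown, held TTNNGNAA once. Of 32851 promoters of the same length in the table, 22.6% held GATAA, 36.8% held TTNNGNAA and 23.3% held GAGGAA, so matches of this kind are common. They are a description of the reference sequence and show no binding.

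Prg2, Prg3, Epx and Ear3 read higher in E than in WT on every array. In M, as deposited, they read at the level of E within the spread, but the sign of M minus E turned with the scaling. For Prg3 the 95% interval of M minus E, -1.81 to 2.19, was too wide to show an equal level. Il5ra read low and scattered in each group. Between E and WT the arrays of 4 of the 5 measured genes did not overlap, all higher in E, against 9.45% of all 18194 genes. By the call rule, 2 of the 2 tested over the brightness filter, Prg2 and Ear3, were higher in E, where 0.462% of the 9097 genes were, and without the filter 3 of 5, with Epx added, where 0.159% of genes were higher and 0.693% lower. Calls of Prg2 and Ear3 were fixed by the choice of the set, so nothing is read from these counts. Epx was called in 3 of 16 alternatives to the fit without the filter.

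Prg2 encodes major basic protein, the protein of the crystalline core of the granule. It read 9.22, 9.29 and 9.09 on the WT arrays, 10.78, 10.73 and 10.95 on the E arrays and 11.30, 10.88 and 10.76 on the M arrays. The WT arrays lay together below all others, and the E and M arrays overlapped. The mean in E was 1.62 above that in WT, or 3.07-fold. The mean in M was 1.78 above that in WT, or 3.43-fold (95% interval 1.49 to 2.06, adjusted p = 5.88e-07, limma). It was 1.15 after median centring and 0.77 after control RNA scaling (adjusted p = 0.000481, limma), both below that interval. M minus E was 0.16 (95% interval -0.13 to 0.45, adjusted p = 0.291, limma), an interval that spans 0.

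Prg3 encodes a homologue of major basic protein and lies near Prg2 on chromosome 2, with 1 long noncoding RNA gene, Gm39868, annotated between them. It read 3.09, 0.77 and 5.76 on the WT arrays, 6.21, 6.62 and 6.75 on the E arrays and 7.13, 6.76 and 6.26 on the M arrays. The WT readings spread widely, with 2 of the 3 far below the median of their arrays, and all E and M readings lay above the third. The mean in E was 3.32 above that in WT and ran from 1.79 to 4.60 over the alternatives tried. On the array's own ranking the gene stood at percentile 50.2 of all probe sets in the third M array and at percentile 51.9 in the third WT array, so by rank these groups overlapped. The mean in M was 3.51 above that in WT (95% interval 1.51 to 5.51, adjusted p = 0.00748 over all 18194 genes, limma). It ran from 1.96 with a pseudocount of 16 to 4.79 without the third WT array, was 2.29 without the second WT array and 2.50 after control RNA scaling, and passed in each of these.

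Epx encodes eosinophil peroxidase, the haem enzyme of the granule matrix. It read 5.97, 5.54 and 5.46 on the WT arrays, 6.88, 6.83 and 7.13 on the E arrays and 7.69, 7.12 and 7.11 on the M arrays. Its mean over the 9 arrays, 6.64, was just under the brightness filter. The WT arrays lay below all E and M arrays, and the E and M arrays overlapped. The mean in E was 1.29 above that in WT, or 2.45-fold. The mean in M was 1.65 above that in WT, or 3.14-fold (95% interval 1.07 to 2.24, adjusted p = 0.000273 over all 18194 genes, limma), but scaled on the control RNAs M minus WT was 0.64 and did not pass (adjusted p = 0.153).

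Ear3 belongs to the eosinophil-associated ribonucleases, a rodent family related to the human eosinophil-derived neurotoxin and eosinophil cationic protein. Some of the Ear genes are near-identical copies, and the name of the Ear3 probe set marks probes that may match related transcripts, so its signal may include other Ear genes. It read 8.49, 8.33 and 8.19 on the WT arrays, 10.39, 10.68 and 10.85 on the E arrays and 11.07, 10.90 and 10.29 on the M arrays. The WT arrays lay below all others, and the third M array lay below every E array. The mean in E was 2.30 above that in WT, or 4.93-fold. The mean in M was 2.42 above that in WT, or 5.34-fold (95% interval 2.00 to 2.83, adjusted p = 9.19e-07, limma), or 1.79 after median centring and 1.41 after control RNA scaling. M minus E was 0.12 (95% interval -0.30 to 0.53, adjusted p = 0.600, limma).

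Il5ra encodes the alpha chain of the interleukin 5 receptor, which pairs with the common beta chain Csf2rb. It read 5.87, 4.65 and 1.33 on the WT arrays, 3.63, 0.71 and 4.56 on the E arrays and 4.94, 3.15 and 4.07 on the M arrays. Every reading was below the median of its array except the first WT one, and the groups overlapped throughout. The mean in E was 0.99 below that in WT, with SDs of 2.01 in E and 2.35 in WT (n = 3 each). M minus WT was 0.10 (95% interval -2.56 to 2.76, adjusted p = 0.962, limma), an interval too wide to show a difference of the size seen for the granule proteins.

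**Figure D1:**
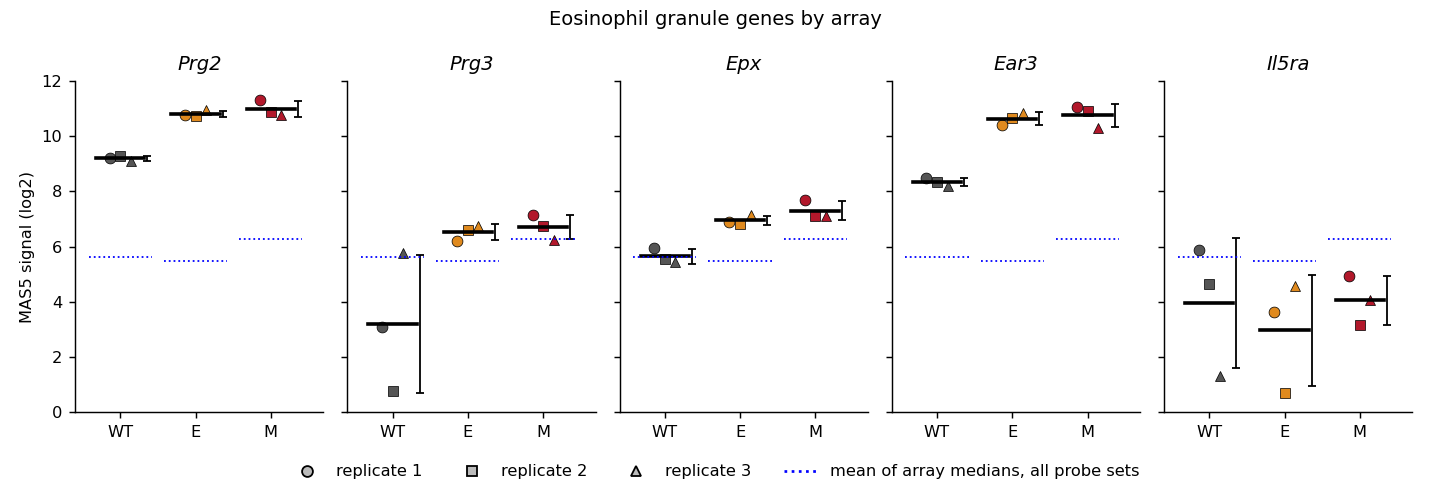
MAS5 signal (log2, y axis) of the 5 measured genes on each array of WT, E and M (x axis). Points are arrays, shaped by replicate number, black lines are group means, bars are SD (n = 3), and blue dotted lines are the mean of the array medians over all probe sets (5.64, 5.50 and 6.26). Prg2, Prg3, Epx and Ear3 read lowest in WT and overlap between E and M, while Il5ra scatters in every group.

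In the comparison of M with WT, which shares the WT arrays with that of E, both genes over the brightness filter, Prg2 and Ear3, rose, where 25.3% of the 9097 genes did. These genes were selected on their WT and E signals, so their p-values for M against WT and M against E are not independent of that selection. Without the filter 4 of 5 rose, with Prg3 and Epx added, where 22.2% of all genes were higher and 21.1% lower. The arrays of 4 of 5 did not overlap, against 28.3% of genes higher in M with no overlap. The 4 differences ran between 1.65 and 3.51 and that of Il5ra was 0.10, against a median of 0.11 over all 18194 genes. After control RNA scaling the 4 were 0.77 for Prg2, 0.64 for Epx, 1.41 for Ear3 and 2.50 for Prg3. In a bulk sample a larger number of cells of a type and more RNA per cell cannot be told apart.

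In the comparison of M with E, which shares the E arrays with that of E and WT, 0 of 2 genes over the brightness filter and 0 of 5 without it were called, and the arrays of 5 of 5 overlapped. Of the 9097 genes 26.1% were higher, of all 18194 genes 24.1% were higher and 21.4% lower, and 30.5% read higher in M with no overlap. M minus E was 0.36 for Epx (95% interval -0.23 to 0.94, adjusted p = 0.315, limma) and 0.19 for Prg3 (95% interval -1.81 to 2.19, adjusted p = 0.892, limma). For Il5ra it was 1.09 (95% interval -1.58 to 3.75, adjusted p = 0.518, limma). The sign of M minus E for Prg2, Ear3, Epx and Prg3 turns with the scaling: median centring gave -0.60 for Prg2 (adjusted p = 0.000396), -0.65 for Ear3 (adjusted p = 0.00224), -0.40 for Epx and -0.57 for Prg3, and Prg2 and Ear3 then fell. No direction between M and E therefore held under every scaling for these 4 genes. Without the third M array, Prg2 and Ear3 passed as higher in M by 0.27 (adjusted p = 0.0499) and 0.35 (adjusted p = 0.0243).

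In E and in M the same array read highest for Prg2, Prg3, Epx and Ear3. The third E array was the highest of its group for 4 of 4, and the first M array for 4 of 4, although the WT arrays shared no such order. The first M array also had the highest control RNA signal, 10.44. The third E array had the highest control RNA signal of its group, 9.20, and the highest median over all probe sets of its group, 5.60. A part of these in the gene readings was not tested, and the share of all genes with the same order was not counted.

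Genes with a profile like that of Prg2 were sought among the 9097 genes by the root mean square difference on the log2 scale over the 9 arrays, after centring each gene on its mean. Ear3 was the closest, at 0.35 (r = 0.99, a description over 9 arrays that share the 3 groups). Both genes were selected on their E and WT signals, so a close rank was largely fixed in advance and nothing is read from it. Then came Car3, carbonic anhydrase 3, at 0.38, Clec1b, a platelet C-type lectin receptor, at 0.43, Nfkb2, an NF-kB subunit, at 0.45, and Acaa1a, a peroxisomal thiolase, at 0.48. Epx, which was under the filter and so no candidate, lay at 0.19 from Prg2, nearer than any of these. The 5 closest to Epx were Prg2 at 0.19, Car3 at 0.33, Clec1b at 0.34, Nfkb2 at 0.39 and Khnyn at 0.41. Ear3 came only at rank 20 from Epx, at 0.46. Prg3 stood at 1.48 from Prg2 and Il5ra at 1.80, both with WT readings that scattered.

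**Figure D2:**
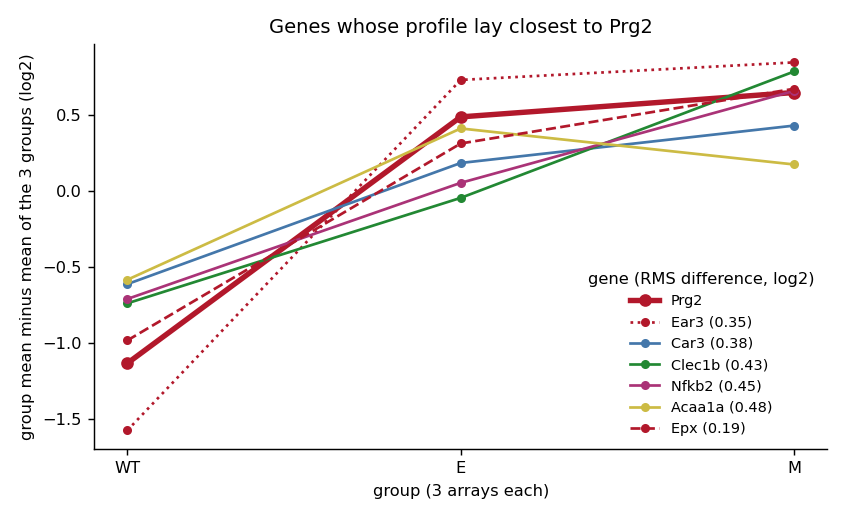
Group mean minus the mean of the 3 groups (log2, y axis) in WT, E and M (x axis, 3 arrays each) for Prg2, the 5 genes closest to it among the 9097 and Epx. The legend gives each gene's root mean square difference from Prg2 over 9 arrays. Of the genes shown, Epx (0.19) and Ear3 (0.35) are closest, and Acaa1a (0.48) is the one that is lower in M than in E. Epx was under the brightness filter and was added as a member of the set, not found by the search. Prg2 and Ear3 were selected on their E and WT signals.

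The other RNase A genes were not called in the early phase. Of 13 listed, 4 had a probe set, and 0 of 4 passed between E and WT. Rnase2a, an eosinophil-type ribonuclease of the mouse, read 3.41, 4.37 and 4.73 in WT, 4.47, 5.80 and 5.46 in E and 8.33, 8.38 and 8.61 in M. M stood apart, and E overlapped WT. It rose by 4.27 in M against WT (adjusted p = 6.93e-06) and by 3.20 in M against E (adjusted p = 6.20e-05, both limma over 18194 genes). Rnase4, a ribonuclease of many tissues, rose by 5.00 in M against WT (adjusted p = 1.55e-08, limma), to 12.76 ± 0.54 in M, against 7.76 ± 0.23 in WT (SD, n = 3 each). Rnase2b and Ang, the angiogenin gene, differed by 0.57 and 0.91 between M and WT and did not pass (adjusted p = 0.474 and 0.368, limma).

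Of 9 measured eosinophil receptors and enzymes, 0 passed between E and WT, and 5 rose between M and WT as deposited, with a median difference of 1.51 over the list, where 22.2% of all genes were higher. Siglecf, a lectin on the surface of mouse eosinophils, read 6.70, 6.69 and 6.63 in M, against 5.38, 5.74 and 4.37 in WT, a rise of 1.51 (adjusted p = 0.0127, limma over 18194 genes). The M arrays lay together above all WT arrays. Under quantile normalization, median centring and control RNA scaling its difference was 0.90, 0.88 and 0.50 and did not pass. Csf2rb, the shared beta chain of the interleukin 5, interleukin 3 and GM-CSF receptors, rose by 2.56 (adjusted p = 1.98e-06) and Csf2rb2, the mouse beta chain for interleukin 3, by 2.45 (adjusted p = 0.000108), and both passed under each scaling. Adgre1, the F4/80 antigen of eosinophils and macrophages, rose by 2.00 (adjusted p = 0.000859), though not after control RNA scaling. Csf2ra, the GM-CSF receptor alpha chain, rose by 1.07 as deposited (adjusted p = 0.0253) and under none of the other 3 scalings. Ccr3, the eotaxin receptor that marks eosinophils, read low everywhere, at 1.67, 0.67 and 0.76 in WT, 3.51, 1.50 and 3.43 in E and 1.28, 0.60 and 1.69 in M. The groups overlapped in both comparisons, and E minus WT was 1.78 (adjusted p = 0.548, limma). Alox15, Hrh4 and Ltc4s did not pass in any comparison.

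Of 10 cytokines and eotaxins that act on eosinophils, 0 passed between E and WT. Between M and WT 3 rose, a share near the 22.2% of all genes that were higher, with a median difference of 1.70 over the list. Ccl11, eotaxin 1, a chemokine that draws eosinophils, read 9.42, 9.37 and 10.47 in M, against 5.35, 4.65 and 5.52 in WT, a rise of 4.58 (adjusted p = 4.17e-07, limma). The groups lay far apart, and Ccl11 passed under each scaling. Il33, an alarmin made by stromal cells, rose by 4.24 (adjusted p = 6.93e-07) and Csf2, which encodes GM-CSF, by 2.40 (adjusted p = 0.00553, both limma over 18194 genes), and both passed under each scaling. Il5, the cytokine that drives eosinophil growth, read 4.71, 2.34 and 5.23 in M, against 3.79, 1.48 and 4.01 in WT, with overlap (M minus WT 1.00, adjusted p = 0.452, limma). Il3, Il4, Il13, Ccl5, Ccl24 and Tslp did not pass between M and WT, and Tslp rose between M and E by 2.31 as deposited (adjusted p = 0.0335, limma) and under none of the other 3 scalings.

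Of 10 measured regulators of the eosinophil lineage, transcription factors and the pseudokinase Trib1, 0 passed between E and WT, and between M and WT 6 rose and 3 fell, with a median difference of 1.13, where 22.2% of all genes were higher and 21.1% lower. Gata1, the factor that sets the eosinophil and erythroid lines, read 11.33, 11.28 and 11.09 in M, against 11.94, 12.05 and 12.27 in WT, and fell by 0.86 (adjusted p = 1.20e-05, limma). Its cofactor Zfpm1 fell by 0.76 (adjusted p = 0.00283). Irf8, a factor of monocytes and also of eosinophil development in the mouse, fell by 1.07 in M against WT (adjusted p = 0.00168). It was lower in E than in WT by 1.07 as well, with adjusted p = 0.0412 over the 9097 genes and 0.0529 over all 18194. Id1 and Id2, inhibitors of basic helix-loop-helix factors, rose by 3.58 (adjusted p = 5.17e-07) and 3.94 (adjusted p = 1.45e-07, both limma), and Trib1 by 3.75 (adjusted p = 0.00173, limma), and these passed under each scaling. Xbp1, a secretory factor that eosinophils need, rose by 1.26 (adjusted p = 1.97e-07), and Cebpa, a C/EBP factor, by 1.61 (adjusted p = 0.00152), each also under quantile normalization and median centring but not after control RNA scaling. Spi1, which encodes PU.1, rose by 0.99 as deposited (adjusted p = 0.0232) and under none of the other 3 scalings, the last of which gave -0.017. Gata2, another GATA factor of the lineage, differed by 0.085 (adjusted p = 0.639, limma) as deposited, and fell by 0.54 after median centring (adjusted p = 0.0112).

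**Figure D3:**
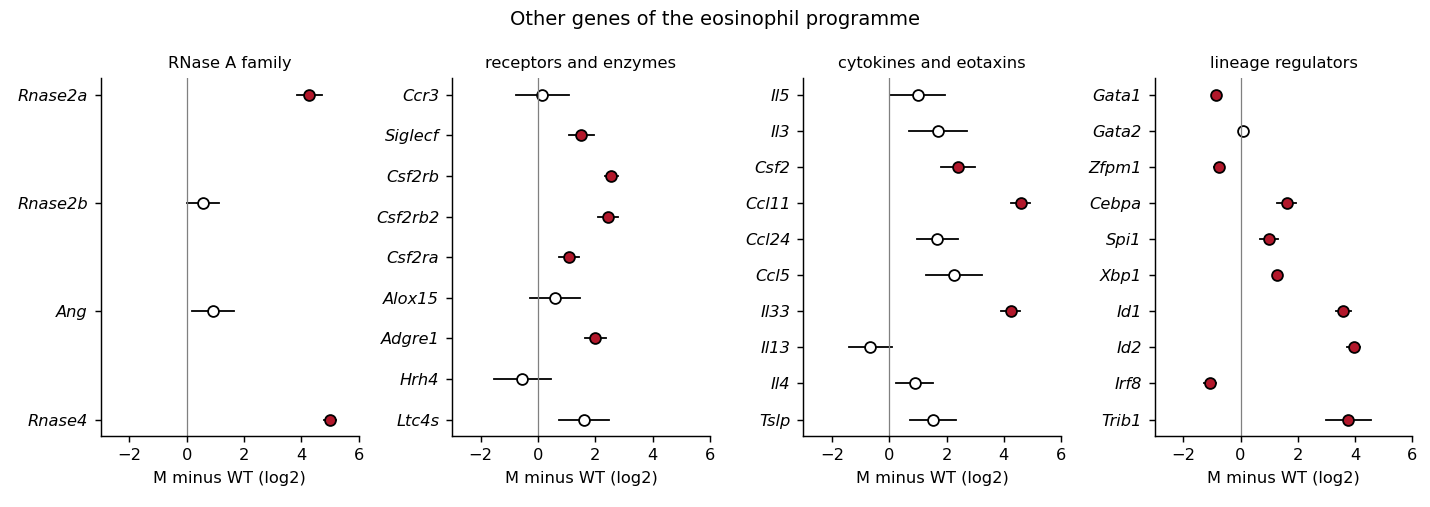
M minus WT (log2, x axis) of the measured genes in 4 lists of the eosinophil programme, 1 row a gene. Points are differences of means of 3 arrays each, bars are the SE of the limma fit over 18194 genes, and filled points passed an adjusted p under 0.05. Ccl11 (4.58), Il33 (4.24), Rnase2a (4.27) and Rnase4 (5.00) differ most, while Ccr3 (0.16) lies near 0.

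Late granule genes of neutrophils also read higher in E than in WT, and their next step is set beside that of the eosinophil genes. Of 9 measured late granule genes 6 rose in E against WT and 9 of 9 in M against E, or 8 of 9 under each of the other scalings. S100a8, an alarmin subunit, read 9.47, 9.38 and 9.60 in WT, 11.58, 11.67 and 11.93 in E and 15.22, 15.05 and 15.13 in M, and rose by 3.40 in M against E (adjusted p = 4.25e-10, limma). Prg2 had M minus E at 0.16 on the same arrays. Chil3, a chitinase-like protein, rose by 4.43 in M against E (adjusted p = 6.10e-11, limma) and Lcn2, which binds siderophores, by 3.62 (adjusted p = 8.76e-08, limma). The summed linear signal of the neutrophil list was 1506 to 1643 in WT, 7244 to 8536 in E and 92534 to 111140 in M, and a part of neutrophil RNA in the readings of the eosinophil genes was not tested. The difference between the 2 lists was not tested either. Their medians of E minus WT were 1.62 for the eosinophil genes and 2.08 for the neutrophil genes, and their medians of M minus E 0.19 and 3.40, against medians of -0.02 and 0.19 over all 18194 genes. The 1.62 is the value of Prg2, on whose E and WT signals the set was selected, so nothing is read from it. The eosinophil median of 0.19 for M minus E is the value of Prg3, with a 95% interval of -1.81 to 2.19. It holds as deposited, whereas Prg2 and Ear3 fell between M and E after median centring and after control RNA scaling. Of 6 primary granule genes of early granulocytes, 2 fell in E against WT in the fit of 9097 genes, where 1.65% of genes did. They were Mpo, the peroxidase gene of neutrophils, which fell by 0.55 (adjusted p = 0.00131, limma), and Ctsg, cathepsin G, by 0.40 (adjusted p = 0.0441, limma). Over all 18194 genes 1 of 6 fell, and 0 of 6 after control RNA scaling. Between M and E 6 of 6 rose as deposited, and after median centring 5 rose and 1 fell.

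**Figure D4:**
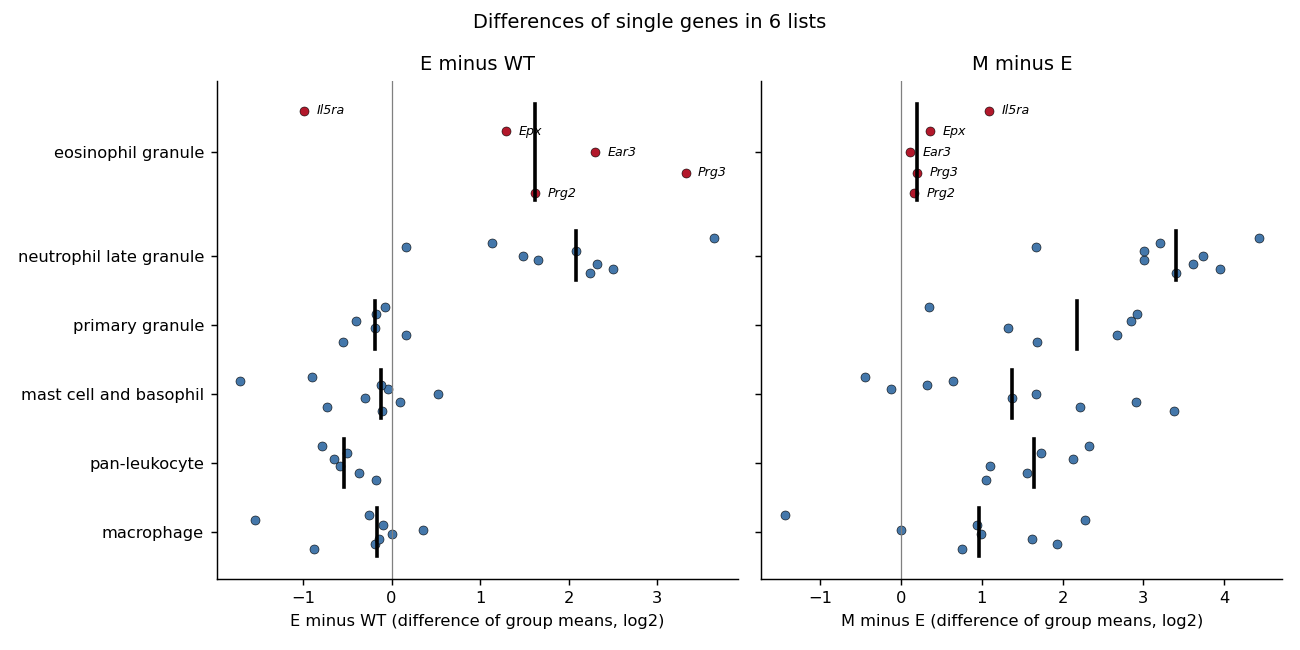
Difference of group means (log2, x axis) for E minus WT (left) and M minus E (right), 1 point a gene, in 6 lists (rows); black bars are list medians. The eosinophil genes have medians of 1.62 and 0.19, and the late granule genes of neutrophils medians of 2.08 and 3.40. The 1.62 is the value of Prg2, on whose E and WT signals the set was selected. The 0.19 is the value of Prg3, as deposited.

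Genes of other blood cells that the sort could hold were read on the same arrays. Of 6 pan-leukocyte genes, 0 passed between E and WT over all 18194 genes, and 1, Lcp1, fell in the fit of 9097 genes, by 0.78 (adjusted p = 0.0410, limma). Between M and WT 6 of 6 rose as deposited, and 1 of 6 after control RNA scaling. Their summed linear signal was 3960 to 4497 in WT, 2782 to 3070 in E and 7116 to 12279 in M. That of the 5 eosinophil genes was 939 to 1085 in WT, 3304 to 4089 in E and 3220 to 5051 in M. Prg2 and Ear3, which were selected on their E and WT signals, make up most of the eosinophil sum. Nothing is therefore read from its step between WT and E. Ptprc, the CD45 gene, read 9.91, 9.68 and 9.70 in WT, 9.74, 9.45 and 9.59 in E and 10.50, 10.25 and 11.17 in M, a high signal in every group although the sort was negative for CD45.1. No pan-leukocyte marker was at 0. A part of leukocyte RNA in the readings of the granule genes was not tested. Of 9 mast cell and basophil genes 0 passed between E and WT. Between M and WT 5 rose as deposited, 4 under quantile normalization and median centring and 3 after control RNA scaling, where 22.2% of all genes were higher as deposited. Mcpt8, a basophil protease, read 11.10, 10.38 and 11.56 in M, against 7.83, 7.51 and 7.89 in WT, a rise of 3.27 (adjusted p = 1.25e-06, limma), and Cpa3, a mast cell protease, rose by 1.49 (adjusted p = 0.000116, limma), though not after control RNA scaling. The summed signal of that list was 610 to 670 in WT, 505 to 621 in E and 2204 to 4691 in M. Of 8 macrophage genes 0 rose and 1 fell in E against WT: Csf1r, the M-CSF receptor, fell by 0.88 (adjusted p = 0.00219, limma). Between M and WT 2 rose and 1 fell as deposited, close to the shares of all genes (22.2% higher and 21.1% lower), and after control RNA scaling 0 rose and 2 fell. Of 4 measured erythroid genes 0 passed in either comparison with WT as deposited, and 2 fell in E against WT after control RNA scaling. Alas2, the first enzyme of haem synthesis in red cells, read 9.69, 9.86 and 9.90 in WT, 7.49, 7.80 and 7.90 in E and 11.74, 11.58 and 8.50 in M. The E arrays lay below all WT arrays, as they did for Slc4a1 and Epb42, and the third M array lay far below the other M arrays. E minus WT was -2.09 for Alas2 (adjusted p = 0.162), -1.20 for Slc4a1 (adjusted p = 0.219) and -0.76 for Epb42 (adjusted p = 0.606, limma), and a part of red cell RNA in the readings of the granule genes was not tested.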

How the data were processed

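Expression was measured on 9 Affymetrix mouse arrays, 3 per group (WT, E and M), of sorted stromal cells. The deposited values are log2 signals from MAS5, per the submitters' processing notes, in which the MAS5 version is not named. They were used as deposited. Of 45101 probe sets, 34958 carried 1 gene symbol in the platform annotation, 932 carried several and 9211 are not listed there. The brightest of a gene's one-symbol probe sets by the mean over 9 arrays stood for the gene. Of 18194 genes, the 9097 at or above log2 6.83 went into a linear model in limma 3.58.1 under R 4.3.3 (all 9 arrays, intensity trend, Benjamini-Hochberg, threshold 0.05); 3 of the 5 measured eosinophil genes are dimmer and were fitted with all 18194. Intervals are 95% intervals of that fit. The fit was tested on simulated data.

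The genes and all gene lists were chosen with earlier results of these data known. All genes of the lists on ribonucleases, receptors, cytokines and lineage regulators are named, at most 4 of each other list, and the 5 nearest in profile to Prg2 and to Epx. Genes listed without a one-symbol probe set (Cebpe, Il1rl1, most Ear genes) are not analysed here. P-values weigh a difference of group means against the spread between arrays within groups, which the main fit estimates over WT, E and M together.

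Alternatives were no brightness filter, a pseudocount of 16, quantile normalization, median centring, scaling on 12 poly-A control probe sets, the mean of a gene's probe sets, only the 2 groups compared, no trend, a replicate block and each array left out in turn. Fits without the filter that also changed the scaling, pseudocount, trend, block or arrays were added after seeing the data.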

Additional observations from a re-analysis of the deposited data

How the results depend on the processing

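The groups hold 3 arrays each, so precision is limited by their number, and the dimmest signals scatter, with SDs of 2.50 for Prg3 and 2.35 for Il5ra in WT. Across 18 alternatives, E minus WT stayed positive for Prg2 (1.55 to 1.75), Ear3 (2.20 to 2.44) and Epx (1.07 to 1.45), and M minus WT stayed positive and called for Prg2 (0.77 to 1.89) and Ear3 (1.41 to 2.65). Prg2 and Ear3 were selected on their E and WT signals, and the alternatives reuse those arrays. Nothing is therefore read from the steady sign of E minus WT for Prg2 and Ear3, and their M minus WT shares the WT arrays. M minus E reversed for Prg2 to -0.60 under median centring and -0.86 under poly-A control scaling (adjusted p = 9.22e-05, limma), and for Ear3 to -0.65 and -0.90 (adjusted p = 4.51e-05, limma); both genes, 2 of the set, were then called as lower in M, and both were called as higher without M replicate 3. Leaving out single arrays, M minus E of Ear3 ran from -0.045 to 0.35, and 0 to 2 of the set were called. Without the brightness filter, quantile normalization, median centring and control scaling reversed M minus E of Epx (-0.31, -0.40, -0.66) and of Prg3 (-0.53, -0.57, -0.83), and Prg3 gave -0.016 without M replicate 1. Control scaling also lost the call of Epx between M and WT (0.64). M minus WT of Il5ra reversed with a pseudocount of 16 (-0.19) and under the 3 scalings (-0.47, -0.53, -0.91), and without WT replicate 3 (-1.21) or M replicate 1 (-0.34), and its M minus E without E replicate 2 (-0.041). Without the filter 4 of the set were called between M and WT, against 2; between M and E 2 were called under median centring and control scaling and 1 without M replicate 3. Genes called between E and WT numbered 192, but 118 under quantile normalization, 99 with the mean of probe sets, 756 with the 2 groups alone and 98 to 836 when an array was left out (836 without M replicate 3). The cause was not tested. Of these calls, 21.9% were higher in E, but 56% under median centring; between M and WT 36.8% were higher, but 16% and 11.8% under median centring and control scaling, and between M and E 37.3%, but 14.9% and 12.6%. The replicate numbers showed no sign of pairing the arrays: 9 same-numbered pairs had correlations of -0.10 to 0.08. Such values over 3 arrays per group cannot exclude pairing. With the number as a replicate block, 153 genes were called between E and WT and 2 of the set, and without the filter 2 of the set, against 3.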
